A study of Mus musculus with 21 samples.

Results

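Experiment 2 of the study compared 3 libraries of tumour endothelial cells from Shb knockout mice (KO) with 3 from wild-type mice (WT). These 6 libraries were chosen by their column names out of the 21 samples of the series, which holds 4 experiments. Per the labels, the KO mice were adult Shb iECKO mice (Shb flox/flox with Cdh5-CreERt2), in which tamoxifen activates a Cre recombinase driven by the promoter of the endothelial gene Cdh5. E0771.lmb cells, a mouse mammary tumour line, were grown in tamoxifen-treated mice of both genotypes, and tumours were collected between day 14 and day 16. CD31-positive cells were sorted, and total RNA was sequenced after ribosomal RNA depletion. The labels' protocol also names a Vav1-cre line and a magnetic step for CD45-positive cells, without saying which samples these concern. All samples of the series were taken from 17 tumours, and no label ties a sample to its tumour, so the spread between replicates may in part be technical.

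Shb is an adaptor protein with an SH2 domain that binds phosphorylated receptor tyrosine kinases such as the VEGF receptor KDR. It passes their signals on to focal adhesion kinase, to the Crk adaptors and to the small GTPase Rap1. In endothelial cells it is known for its part in sprouting, permeability and the cytoskeletal response to VEGF. Levels are given in TPM, reads per length of gene scaled to the same sum in each library. Differences are KO minus WT of log2(TPM + 1), a scale on which low genes change too little. A gene was called at a limma adjusted p under 0.05 (Benjamini-Hochberg over all genes tested).

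The sequences below belong to the RNAs that the comparison turned on. Rny1, Snord104 and Gm24497 are the 3 genes that were called. They are given 5′ to 3′ in full from the GENCODE transcripts of GRCm38.
Rny1: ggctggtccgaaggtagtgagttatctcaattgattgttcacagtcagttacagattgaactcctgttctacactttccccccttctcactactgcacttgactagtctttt
Snord104: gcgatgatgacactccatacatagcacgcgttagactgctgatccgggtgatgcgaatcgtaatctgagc
Gm24497: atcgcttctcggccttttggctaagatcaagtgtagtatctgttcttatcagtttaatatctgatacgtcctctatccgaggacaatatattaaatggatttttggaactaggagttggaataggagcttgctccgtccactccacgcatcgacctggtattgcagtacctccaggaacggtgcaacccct
Rny1 (chromosome 6, 47788069 to 47788180, minus strand, 112 bases) is a Y RNA, a small noncoding RNA bound by the Ro60 protein. Snord104 (chromosome 11, 106500993 to 106501062, plus strand, 70 bases) is a box C/D small nucleolar RNA, a class that guides 2′-O-methylation of ribosomal RNA. Gm24497 (chromosome 1, 72244213 to 72244403, plus strand, 191 bases) is annotated as a small nuclear RNA and lies within the noncoding gene D230017M19Rik. Its first 60 bases were found in 13 annotated genes, so reads of this family may be split among copies, whereas the first 60 bases of Rny1 and of Snord104 were found in 1 gene each.

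The named genes also held copies of histone H4, the core histone that pairs with H3 in the nucleosome. The first 150 coding bases of the 3 copies with the lowest p are shown, with the 13 positions at which they differ in capitals.
Hist1h4m: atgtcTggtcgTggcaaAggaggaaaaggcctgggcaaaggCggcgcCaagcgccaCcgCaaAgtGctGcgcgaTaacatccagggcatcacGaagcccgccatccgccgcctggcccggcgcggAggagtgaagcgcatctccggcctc
Hist1h4b: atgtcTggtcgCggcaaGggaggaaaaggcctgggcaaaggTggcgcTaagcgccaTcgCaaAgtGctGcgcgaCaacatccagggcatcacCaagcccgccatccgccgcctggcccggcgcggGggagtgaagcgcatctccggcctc
Hist1h4a: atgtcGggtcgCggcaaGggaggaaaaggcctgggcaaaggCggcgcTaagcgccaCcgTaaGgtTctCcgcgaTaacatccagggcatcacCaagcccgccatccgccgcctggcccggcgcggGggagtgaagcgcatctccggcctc
Over the 312 coding bases Hist1h4a and Hist1h4b were 96.8% identical, and Hist1h4m was 96.5% identical to each. Hist1h4m was 100% identical to Hist1h4n over these bases, and 13 H4 copies compared ranged from 85.3% to 100%. A level of a single H4 copy is therefore uncertain, because the counting of reads shared by copies is not given in the sources used here.

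The promoters of 3 genes are shown for the gene groups described further on, from 250 bases before to 50 bases after the start site in RefSeq (GRCm38.p6). Capitals in Gbp3 and Ifit3 mark GAAANNGAA on either strand, the core of the interferon-stimulated response element, and in Hmgcs1 they mark TCACNCCAC on either strand, a form of the sterol regulatory element.
Gbp3 (chr3:142559794-142560093, plus strand): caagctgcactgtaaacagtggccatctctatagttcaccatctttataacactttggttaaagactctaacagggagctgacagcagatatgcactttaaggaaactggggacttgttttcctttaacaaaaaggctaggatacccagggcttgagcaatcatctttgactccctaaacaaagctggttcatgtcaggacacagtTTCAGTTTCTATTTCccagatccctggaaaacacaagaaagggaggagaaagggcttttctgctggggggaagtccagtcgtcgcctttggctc
Ifit3 (chr19:34583279-34583578, plus strand): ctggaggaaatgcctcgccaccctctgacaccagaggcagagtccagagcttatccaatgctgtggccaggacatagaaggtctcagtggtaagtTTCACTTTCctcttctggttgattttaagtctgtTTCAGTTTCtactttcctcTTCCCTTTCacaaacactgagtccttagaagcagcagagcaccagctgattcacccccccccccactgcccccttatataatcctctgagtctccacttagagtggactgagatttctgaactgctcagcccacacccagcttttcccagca
Hmgcs1 (chr13:119690101-119690400, plus strand): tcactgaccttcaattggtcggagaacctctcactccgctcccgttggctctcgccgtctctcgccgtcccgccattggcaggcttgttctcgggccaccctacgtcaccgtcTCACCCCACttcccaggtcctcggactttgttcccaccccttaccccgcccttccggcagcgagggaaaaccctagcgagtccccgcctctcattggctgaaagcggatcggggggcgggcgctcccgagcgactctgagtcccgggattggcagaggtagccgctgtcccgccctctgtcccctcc

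All 6 libraries carried endothelial transcripts: Pecam1, which encodes CD31, ranged from 461 TPM in WT replicate 1 to 1435 TPM in KO replicate 2. WT replicate 1 stood apart through Gm26917, the highest gene of every library, which took 35.87% of its TPM against 11.13% to 17.19% in the other 5. KO replicate 3 stood apart through missing values. It had 12178 genes above 0, against 14933 to 19884 elsewhere, and its mean correlation with the other libraries was 0.809, against 0.870 to 0.908. Of the 7652 genes at 10 TPM or more in all 5 other libraries, KO replicate 3 listed 183 at 0, while the same count was 4 in KO replicate 2, 1 in KO replicate 1 and WT replicate 3, and 0 in WT replicates 1 and 2. Of 60 genes of the ribosome and of oxidative phosphorylation, which every cell uses, KO replicate 3 listed 3 at 0 and KO replicate 2 listed 1, so a 0 is given below only as a listed value. The header of KO replicate 3 stands over 2 columns. The first has 2 decimals, like the other columns of experiment 2, and the second has up to 6, like those of experiment 4. KO replicate 3 of experiment 4 has no column headed with its name and was not analysed here. Which sample the second column holds could not be settled. The second column entered only alternatives, and values for experiment 4 rest on 2 KO and 3 WT libraries.

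Shb, the deleted gene (chromosome 4, 45423278 to 45532470, minus strand), was lower in all 3 KO libraries than in any WT library. It stood at 14.3, 34.9 and 11.0 TPM in KO replicates 1 to 3, and at 40.7, 46.1 and 64.3 TPM in WT replicates 1 to 3. KO replicate 2 lay closest to WT, and the groups did not overlap. The KO mean was 20.1 ± 12.9 TPM (SD, n = 3), 0.399 times the WT mean of 50.4 ± 12.4 TPM (SD, n = 3). The log2 difference was -1.42 (SE 0.44), with a limma adjusted p of 0.929, so Shb was not called. The exact two-sided permutation p was 0.1, the smallest that 3 libraries against 3 allow. In the other experiments the log2 difference of Shb was 0.29 (experiment 1), -0.06 (experiment 3) and -1.85 (experiment 4), and the difference between experiment 2 and the mean of these 3 was -0.88 (SE 0.63, limma adjusted p = 1).

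**Figure D1:**
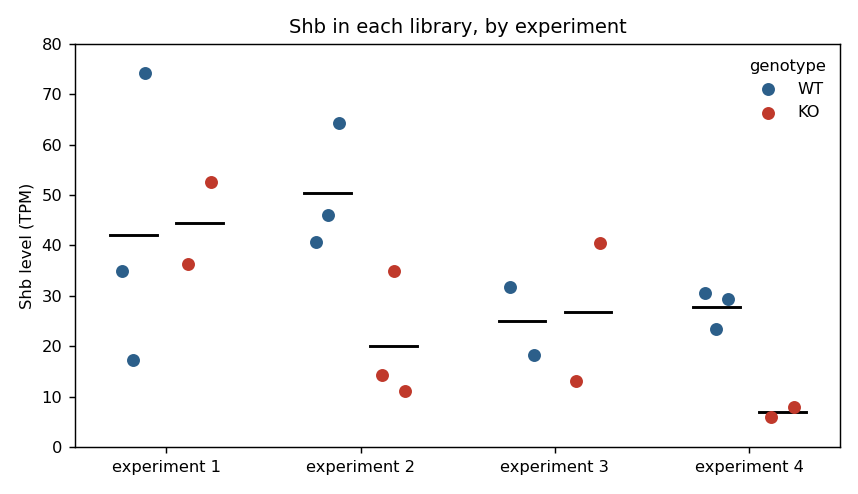
Level of Shb in TPM (y axis, linear from 0) in each library of the 4 experiments (x axis), WT in blue and KO in red, with black lines at group means. In experiment 2 the 3 KO libraries sit between 11.0 and 34.9 TPM and the 3 WT libraries between 40.7 and 64.3 TPM.

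The receptors and partners that Shb works with showed no call, but neither did Shb, and only 3 of all 14452 genes tested (0.0208%) were called. KDR mRNA (Kdr) was at 497, 485 and 203 TPM in KO and 214, 507 and 545 TPM in WT, with KO replicate 3 and WT replicate 1 low and the others alike. Focal adhesion kinase (Ptk2) differed by 0.01 on the log2 scale, Crk by 0.22, Rapgef1, an activator of Rap1, by 0.40, and the related adaptors She and Shf by -0.05 and 0.36, and none was called. Among the 20 tested genes of this list 11 were higher and 9 lower, with a median difference of 0.02 that was -0.16 without KO replicate 2 and 0.27 without KO replicate 3. Besides Shb, the member with the lowest p was the PDGF receptor gene Pdgfrb, a receptor of pericytes and fibroblasts, at 1.93, 0.92 and 3.53 TPM in KO and 15.6, 12.8 and 3.45 TPM in WT. In bulk samples fewer cells of a type and less RNA per cell cannot be told apart.

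Across 14452 genes 3 were called lower in KO (0.0208% of genes tested) and 0 higher (0%). At an unadjusted p under 0.05 there were 439 lower (3.04%) and 223 higher (1.54%), together 4.58%. The median difference over all genes was -0.07, and 44.7% were higher in KO. Centring each library on a common median turned the unadjusted counts to 556 lower and 536 higher, and quantile normalization turned them to 509 lower and 600 higher, so which direction held more genes depended on the scaling. The number called depended on single libraries: it was 33 (24 lower and 9 higher) without KO replicate 1, 6 lower without KO replicate 3, and 1 lower without WT replicate 1 or without WT replicate 3.

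Rny1 was listed at 0 in the 3 KO libraries and stood at 64.8, 76.9 and 89.1 TPM in WT (limma adjusted p = 8.1e-04). Snord104 was listed at 0 in the 3 KO libraries and stood at 95.9, 44.8 and 36.0 TPM in WT (limma adjusted p = 0.00701). Gm24497 was listed at 0 in the 3 KO libraries and stood at 484, 268 and 320 TPM in WT (limma adjusted p = 1.6e-05). No fold is given against groups listed at 0. These genes passed the filter, 1 TPM in 3 libraries, only through WT. With KO listed at 0 throughout, KO added no spread to these tests, so their p-values do not measure a spread between KO replicates. All 3 are under 200 bases long, and with genes under 200 bases left out and TPM rescaled 0 genes were called, with 434 lower and 228 higher at an unadjusted p under 0.05. The call of Rny1 was lost without WT replicate 1 (limma adjusted p = 0.0965) and without WT replicate 3 (0.0529), and that of Snord104 without any 1 of the WT libraries (0.0757 to 0.255). In the 14 other libraries with a column of their own, Rny1 was listed at 0 in 3 and Gm24497 in 6, from both genotypes. The log2 difference of Rny1 was 0.06, 1.92 and 4.35 in experiments 1, 3 and 4, so it was not lower in KO there. In the second column headed as KO replicate 3, which may be a library of experiment 4, Gm24497 is listed at 111 TPM, and with that column in place of the first its call was lost (limma adjusted p = 0.931). Snord104 was listed at 0 in 12 of these 14, including 7 of 8 WT libraries, so its WT levels in experiment 2 stood apart from WT elsewhere.

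By their rule the 24 genes named by rank, Rny1 and Snord104 among them, had groups that did not overlap. The same held for 962 genes with KO below WT (6.66%) and 636 with KO above WT (4.4%). The lower named genes held 3 copies of histone H4. Hist1h4m was at 0, 0 and 2.52 TPM in KO and 39.8, 30.9 and 70.0 TPM in WT (log2 difference -4.89, SE 0.64, limma adjusted p = 0.0824). Hist1h4b was at 5.81, 0 and 0 TPM in KO and 55.1, 48.5 and 28.5 TPM in WT (log2 difference -4.52, SE 0.76, limma adjusted p = 0.402). Hist1h4a was at 14.3, 6.26 and 0 TPM in KO and 45.5, 46.6 and 42.1 TPM in WT, so KO replicate 3 was the lowest and WT was even. In experiments 1, 3 and 4 the log2 difference of Hist1h4m was -6.19, -5.68 and -2.19, those of Hist1h4b 2.35, -3.64 and -1.05. By these differences Hist1h4m was lower in KO in each of the 4 experiments, and Hist1h4b in 3 of them. In experiment 4 the groups overlapped for Hist1h4m, at 0.61 and 66.6 TPM in KO and 63.3, 17.3 and 90.5 TPM in WT.

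Of the 26 replication-dependent histone genes, which are transcribed in S phase to package new DNA, 25 were tested. Of these 24 were lower and 1, Hist1h2ab, was higher, with a median difference of -0.76 (-0.74 over all 26) against -0.07 over all genes. In 10 of the 25 all KO values lay below all WT values, against 6.66% of all genes. The list mean was 4.24, 3.91 and 2.69 in KO and 5.09, 5.19 and 4.74 in WT on the log2(TPM + 1) scale. KO replicate 3 was the lowest, and it listed 11 of the 26 genes at 0, against 4 in KO replicate 2, 1 in KO replicate 1 and 0 in WT. Without KO replicate 3 and WT replicate 1 the median was -0.54, with 23 of 25 lower. Histone mRNAs mostly lack a poly(A) tail, and the total RNA kit measures them without selecting for one.

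Proliferation genes were lower as well, by less. Of 30 cell cycle genes 26 were lower and 4 higher, with a median difference of -0.55, and 12 had KO below WT throughout, against 6.66% of all genes. Bub1b, a kinase of the spindle checkpoint, was at 17.3, 11.5 and 9.58 TPM in KO and 32.7, 29.0 and 27.9 TPM in WT (log2 difference -1.20, SE 0.35, limma adjusted p = 0.929). Mcm3, a subunit of the replicative helicase, was at 33.3, 15.3 and 7.68 TPM in KO and 46.5, 50.2 and 41.4 TPM in WT. Mki67, the common proliferation marker, did not share this pattern: it was at 35.8, 40.6 and 29.0 TPM in KO and 21.5, 38.5 and 39.1 TPM in WT.

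Ribosomal protein genes, which encode the structural proteins of the cytosolic ribosome, were lower in 29 of 30, with a median difference of -0.43, and 15 of the 30 had KO below WT throughout (6.66% of all genes did). Rpl8 was at 183, 143 and 119 TPM in KO and 329, 284 and 228 TPM in WT (log2 difference -0.92, SE 0.33, limma adjusted p = 0.929). Rps2 was at 448, 424 and 435 TPM in KO and 675, 679 and 570 TPM in WT, so the KO libraries were close together and below WT. The list mean was 7.52, 7.30 and 7.16 in KO and 7.77, 7.90 and 7.68 in WT, and no member was listed at 0. The difference of the list mean was -0.22, -0.31 and -0.26 in experiments 1, 3 and 4 and -0.46 in experiment 2.

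Genes of sterol synthesis, which are under control of the transcription factor SREBP2, were lower in 21 of 22, with a median difference of -0.81, and 8 had KO below WT throughout (all genes: 6.66%). Srebf2, which encodes SREBP2, was at 46.5, 40.9 and 24.1 TPM in KO and 88.1, 74.7 and 56.8 TPM in WT (log2 difference -0.99, SE 0.35, limma adjusted p = 0.929). Hmgcs1, which makes HMG-CoA, was at 36.5, 35.8 and 16.7 TPM in KO and 74.3, 69.3 and 43.8 TPM in WT. Sqle, the squalene epoxidase, was at 11.2, 10.6 and 0 TPM in KO and 39.9, 28.2 and 12.5 TPM in WT. For all 3 genes the lowest WT library was replicate 3 and the lowest KO library replicate 3. Without KO replicate 3 and WT replicate 1 the list median was -0.45, with 20 of 22 lower, and the difference of the list mean was 0.35, 0.08 and -0.60 in experiments 1, 3 and 4. The sterol motif was present in the Hmgcs1 promoter shown above and in no other of the 16 list members with a promoter entry (6.25%), against 1.44% of all 27025 genes with one.

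Other metabolic lists pointed the same way. Fatty acid synthesis and desaturation genes were lower in 13 of 15 (median -0.58, but -0.28 without KO replicate 3), among them Fasn, the fatty acid synthase, at 27.1, 22.6 and 29.2 TPM in KO and 66.3, 50.0 and 36.8 TPM in WT. Glycolysis genes were lower in 14 of 19 tested (median -0.39). Gapdh was at 766, 680 and 654 TPM in KO and 1043, 1186 and 971 TPM in WT, and Pgk1 at 89.0, 81.9 and 79.0 TPM in KO and 119, 115 and 113 TPM in WT. Pfkfb3, which makes the activator of phosphofructokinase and is an endothelial glycolytic regulator, lay on the other side, at 470, 471 and 459 TPM in KO and 234, 324 and 411 TPM in WT. Genes of oxidative phosphorylation encoded in the nucleus were lower in 23 of 30 (median -0.24, and -0.45 without KO replicate 1). Uqcr10, a subunit of complex III that was named by rank and is not in this list, was at 13.7, 0.85 and 0 TPM in KO and 30.2, 26.9 and 30.2 TPM in WT.

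**Figure D2:**
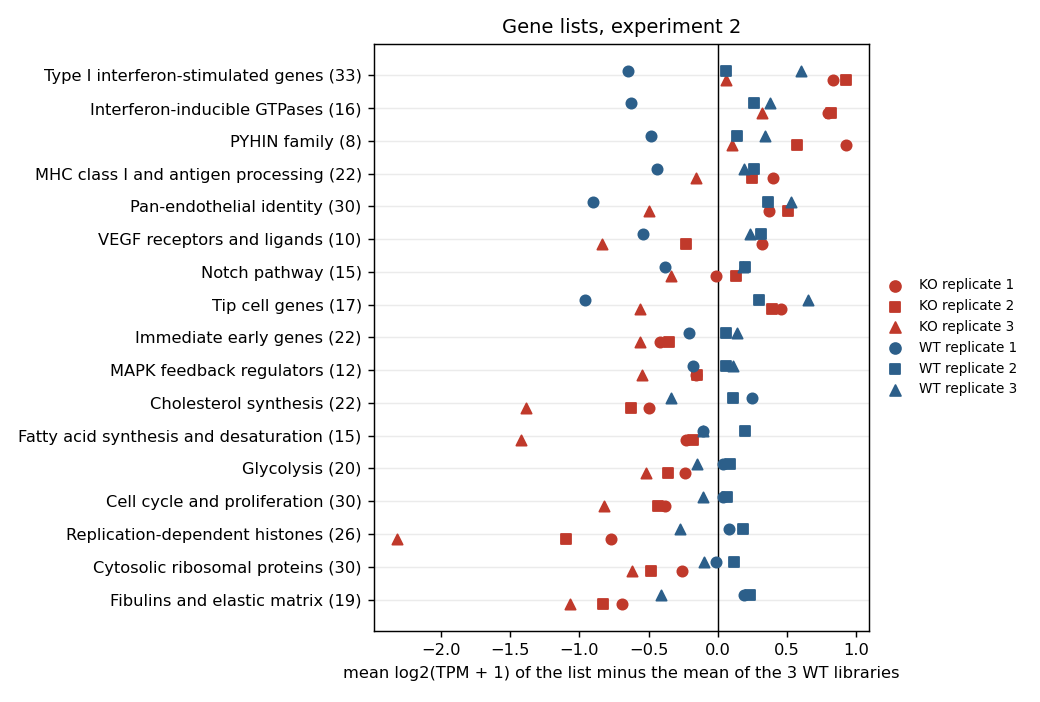
Mean log2(TPM + 1) of 17 gene lists (y axis, number of genes found in brackets) in each library of experiment 2, minus the mean of the 3 WT libraries (x axis), KO in red, WT in blue and replicates by symbol. The 3 KO libraries lie left of all WT libraries for histone, ribosomal protein, cell cycle, sterol, fatty acid, glycolysis, fibulin and immediate early genes, and the interferon lists lie to the right with overlap.

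Matrix genes of the fibulin and elastic fibre list were lower in all 13 members tested of 19 found, with a median difference of -0.92 (also -0.92 over all 19), and in 6 of the 13 KO lay below WT throughout, compared with 6.66% of all genes. Fbln2, a fibulin of vessel walls, was at 74.0, 88.8 and 68.9 TPM in KO and 201, 162 and 141 TPM in WT (log2 difference -1.10, SE 0.31, limma adjusted p = 0.929). Elastin (Eln) was at 54.0, 68.2 and 5.39 TPM in KO and 80.8, 111 and 95.6 TPM in WT. The basement membrane list had 7 genes higher and 8 lower, with a median of -0.02 that was -0.47 without WT replicate 1 and 0.27 without KO replicate 3.

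Several of the lower genes are also made by fibroblasts. Postn, a matricellular protein, was at 3.49, 0 and 0 TPM in KO and 30.6, 30.2 and 12.5 TPM in WT (log2 difference -3.84, SE 0.74, limma adjusted p = 0.522). Col3a1, a fibrillar collagen, was at 4.91, 13.8 and 8.84 TPM in KO and 145, 76.3 and 16.7 TPM in WT. S100a4, a calcium-binding protein of fibroblasts and leukocytes, was at 5.44, 0 and 0 TPM in KO and 38.3, 19.5 and 6.96 TPM in WT. In all 3 genes WT replicate 3 lay closest to KO. The 13 fibroblast markers had a mean level of 1.91, 1.32 and 1.92 in KO and 4.54, 3.99 and 2.30 in WT on the log2(TPM + 1) scale, and 9 of 10 tested were lower (median -2.09, or -1.91 over all 13, and -3.29 without WT replicate 3). KO replicates 1 to 3 listed 2, 5 and 7 of the 13 at 0 and WT listed none. The part of these cells in the lower matrix genes was not tested.

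Leukocyte markers split the WT group. The 15 macrophage and monocyte markers had a mean of 2.23, 1.38 and 2.43 in KO and 4.37, 4.05 and 1.86 in WT, so WT replicate 3 lay with KO. Lyz2, lysozyme of myeloid cells, was at 6.51, 2.93 and 7.96 TPM in KO and 73.9, 49.7 and 6.55 TPM in WT. Cd74, the invariant chain of MHC class II and not one of these markers, was at 57.9, 42.5 and 67.9 TPM in KO and 250, 195 and 34.4 TPM in WT. The macrophage marker Cd68 did not share this pattern, at 17.5, 16.8 and 26.3 TPM in KO and 21.05, 36.2 and 28.6 TPM in WT. Nor did the pan-leukocyte marker Lcp1, at 119, 135 and 97.8 TPM in KO and 77.4, 121 and 146 TPM in WT. Of the macrophage markers 14 of 14 tested were lower, and of the pan-leukocyte markers 10 of 11. Without WT replicate 3 the median of the macrophage list went from -1.53 to -2.31, and without KO replicate 2 it was -0.77. Pericyte and smooth muscle markers had a mean of 1.76, 1.33 and 0.56 in KO and 2.11, 2.50 and 2.04 in WT. Their median difference of -1.05 became -0.42 without KO replicate 3 and WT replicate 1. Of 8 tested of 12 found, 7 were lower, and KO replicates 1 to 3 listed 0, 5 and 9 of the 12 at 0, against 1 in each WT library. Rgs5 was at 5.82, 0.75 and 0 TPM in KO and 12.0, 21.3 and 8.03 TPM in WT. Other markers overlapped between groups: Abcc9 was at 19.6, 22.1 and 10.9 TPM in KO and 7.36, 20.4 and 30.6 TPM in WT. Tagln was at 7.46, 16.85 and 0 TPM in KO and 6.72, 11.4 and 11.6 TPM in WT. Lymphatic endothelial markers had a mean of 1.72, 1.70 and 1.32 in KO and 2.41, 2.83 and 3.56 in WT. Of 5 tested of 7 found, 4 were lower and 1 higher, and KO replicates 1 to 3 listed 1, 3 and 5 of the 7 at 0. Ccl21a, the lymphatic chemokine, was listed at 0 in the 3 KO libraries and stood at 8.40, 6.21 and 29.9 TPM in WT (limma adjusted p = 0.522). The higher member, Flt4, overlapped between groups, at 130, 124 and 55.3 TPM in KO and 39.0, 108 and 153 TPM in WT. Erythroid markers were highest in KO replicate 3, where Hbb-bs reached 32.4 TPM. Among the higher named genes the globin pseudogene Hba-ps4 was also highest there, at 44.0, 535 and 1060 TPM in KO and 3.82, 16.7 and 12.0 TPM in WT.

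**Figure D3:**
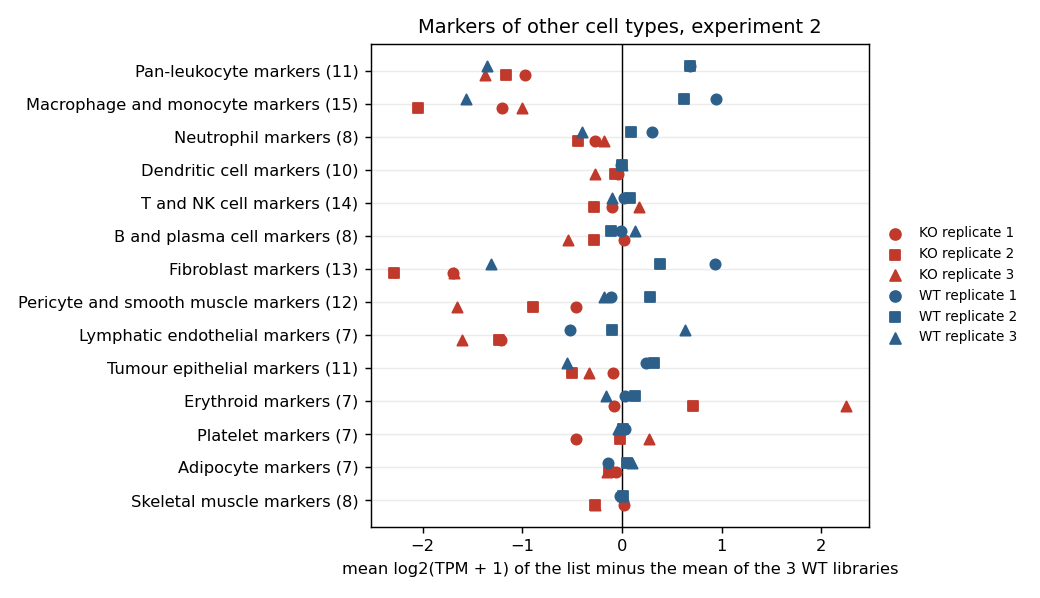
Mean log2(TPM + 1) of markers of 14 other cell types (y axis, number of genes found in brackets) in each library, minus the mean of the 3 WT libraries (x axis), KO in red, WT in blue and replicates by symbol. For leukocyte, macrophage and fibroblast markers WT replicates 1 and 2 lie to the right of WT replicate 3 and of the 3 KO libraries.

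The other lower named genes were Arhgap22, Rian and Epb4.1l4aos. Arhgap22, which inactivates the small GTPase Rac, was at 9.20, 2.18 and 3.56 TPM in KO and 60.2, 30.6 and 14.6 TPM in WT (log2 difference -2.56, SE 0.61). Rian, a maternally expressed noncoding RNA of the Dlk1-Dio3 domain, was at 2.69, 0 and 0 TPM in KO and 15.5, 11.8 and 8.90 TPM in WT. Epb4.1l4aos is named as an antisense transcript, and the counting is not stated to use strand, so reads of its partner cannot be told apart from its own. It was at 4.04, 0 and 0 TPM in KO and 17.5, 16.2 and 9.93 TPM in WT.

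On the higher side stood the interferon-stimulated genes. Type I interferon-stimulated genes, which encode antiviral sensors and effectors, were higher in 32 of 33, with a median difference of 0.69 against -0.07 over all genes, and 4 of them had KO above WT throughout, against 4.4% of all genes. The groups overlapped: the list mean was 6.32, 6.42 and 5.55 in KO and 4.84, 5.55 and 6.09 in WT. KO replicates 1 and 2 were above all WT libraries, KO replicate 3 was level with WT replicate 2, and WT replicate 1 was the lowest. Without WT replicate 1 the median was 0.31, with 30 of 33 higher, and without both KO replicate 3 and WT replicate 1 it was 0.58, with 32 of 33 higher. In experiments 1, 3 and 4 the difference of the list mean was 0.77, 0.40 and -0.23, against 0.60 in experiment 2.

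Ifit3, an antiviral protein with tetratricopeptide repeats, was at 72.3, 95.8 and 62.5 TPM in KO and 20.8, 33.8 and 59.96 TPM in WT (log2 difference 1.10, SE 0.41, limma adjusted p = 0.929). Oas3, a sensor of double-stranded RNA, was at 20.3, 12.0 and 17.2 TPM in KO and 8.12, 7.47 and 8.59 TPM in WT. Mx2 was at 84.1, 137 and 129 TPM in KO and 24.5, 35.6 and 105 TPM in WT, with WT replicate 3 between the KO libraries. The 1 lower member was Ifi27l2a, which was at 1.02, 0 and 0 TPM in KO and 5.04, 5.86 and 3.97 TPM in WT.

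The interferon-inducible GTPases, which attack the membranes around intracellular pathogens, were higher in 16 of 16, with a median difference of 0.57. Gbp4 was at 1212, 1144 and 957 TPM in KO and 270, 537 and 724 TPM in WT (log2 difference 1.22, SE 0.42, limma adjusted p = 0.929). Gbp3 was at 137, 126 and 135 TPM in KO and 42.2, 87.1 and 100.1 TPM in WT, so its KO libraries were even while WT replicate 1 was low. Gbp10, which is not in the list and had the lowest p among the higher named genes, was at 128, 156 and 132 TPM in KO and 42.7, 55.2 and 60.9 TPM in WT (log2 difference 1.39, SE 0.30, limma adjusted p = 0.929). Its log2 difference was 1.11, 0.92 and 0.06 in experiments 1, 3 and 4. Without WT replicate 1 the median of the GTPase list was 0.25, with 15 of 16 higher. The difference of the GTPase list mean was 0.40, 0.10 and -0.42 in experiments 1, 3 and 4, against 0.64 in experiment 2.

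Of the PYHIN family, sensors of nucleic acids, 8 of the 15 genes listed were found, and 7 of these were higher (median 0.67, and 0.36 without WT replicate 1). The difference of the PYHIN list mean was 0.79, -0.05 and -0.51 in experiments 1, 3 and 4, against 0.53 in experiment 2. Pydc4 was at 271, 228 and 124 TPM in KO and 55.0, 89.1 and 121 TPM in WT, and Aim2, the inflammasome sensor, at 21.0, 19.3 and 8.84 TPM in KO and 28.8, 19.5 and 19.0 TPM in WT. Nmi, an interferon-inducible partner of STAT proteins, was at 22.2, 29.7 and 41.1 TPM in KO and 5.41, 6.17 and 15.4 TPM in WT (log2 difference 1.77, SE 0.46, limma adjusted p = 0.929). Antigen processing genes of MHC class I were higher in 16 of 22, with a median of 0.22 that became -0.01 without WT replicate 1. Nlrc5, their transactivator, was at 296, 294 and 264 TPM in KO and 135, 163 and 214 TPM in WT.

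**Figure D4:**
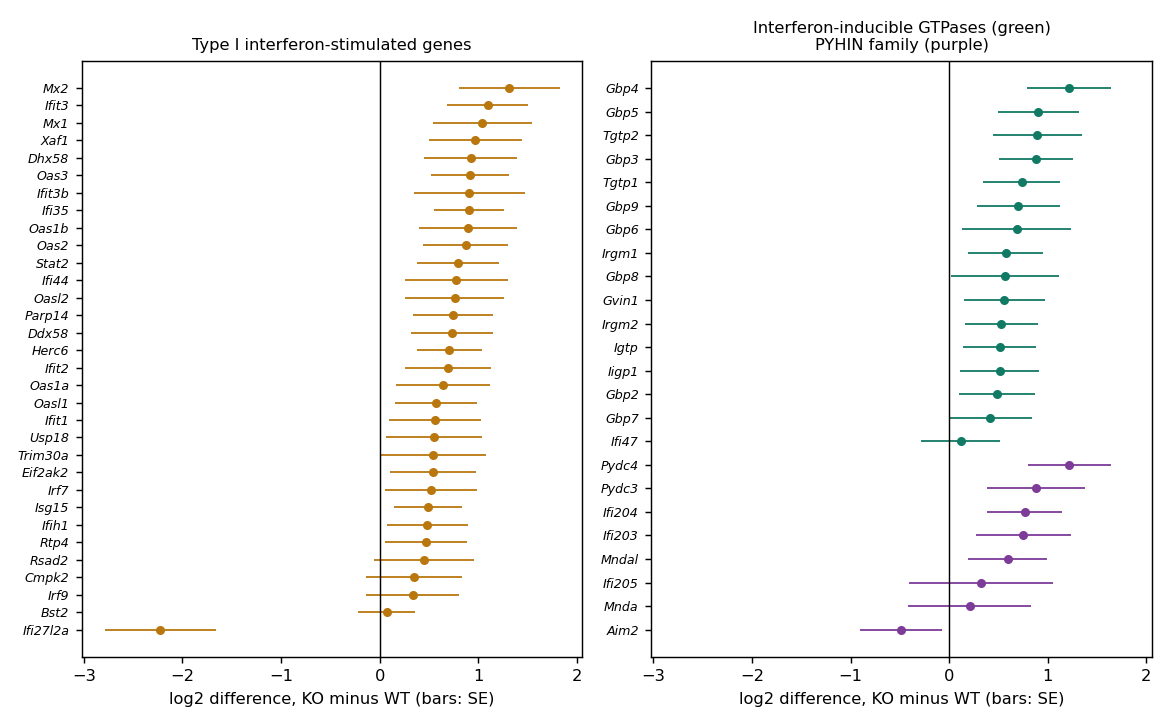
Log2 difference, KO minus WT, of tested members (x axis, bars give the SE from limma) of the type I interferon-stimulated genes (left, 1 member not shown), the interferon-inducible GTPases and the PYHIN family (right). All points except Ifi27l2a and Aim2 lie right of 0.

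The interferon motif shown in capitals above was found in the promoters of 14 of the 23 type I interferon-stimulated genes that had an entry (60.9%) and of 9 of 10 GTPases (90%). Over all genes with an entry the share was 9.76%. Gbp3 had 2 matches, which overlapped, in the promoter shown and 0 in its second RefSeq promoter, and Ifit3 had 3. These lists are defined by their response to interferon, so the motif describes the lists and not this comparison.

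The other higher named genes belong to no list that was higher as a whole. Sema3a, a secreted semaphorin that repels axons and endothelial cells, was at 33.5, 67.0 and 61.7 TPM in KO and 11.7, 23.3 and 23.2 TPM in WT (log2 difference 1.43, SE 0.41, limma adjusted p = 0.929). The axon guidance list as a whole had 11 genes higher and 12 lower. Tnik, a kinase of the Wnt pathway, was at 46.0, 116 and 61.3 TPM in KO and 10.3, 29.0 and 33.0 TPM in WT. Banp was at 96.6, 122 and 132 TPM in KO and 55.4, 64.4 and 52.9 TPM in WT. Polr3c, a subunit of RNA polymerase III, was at 34.4, 49.1 and 60.8 TPM in KO and 17.1, 18.9 and 26.7 TPM in WT. Timm10b, of mitochondrial protein import, was at 74.8, 74.3 and 122 TPM in KO and 23.1, 49.3 and 42.6 TPM in WT. In Banp, Polr3c and Timm10b KO replicate 3, the library with most missing values, was the highest. The remaining 4 were Gfod2, Ccdc62, the ribosomal 5S gene n-R5s193 and the olfactory receptor pseudogene Olfr755-ps1, with log2 differences between 1.10 and 4.23.

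**Figure D5:**
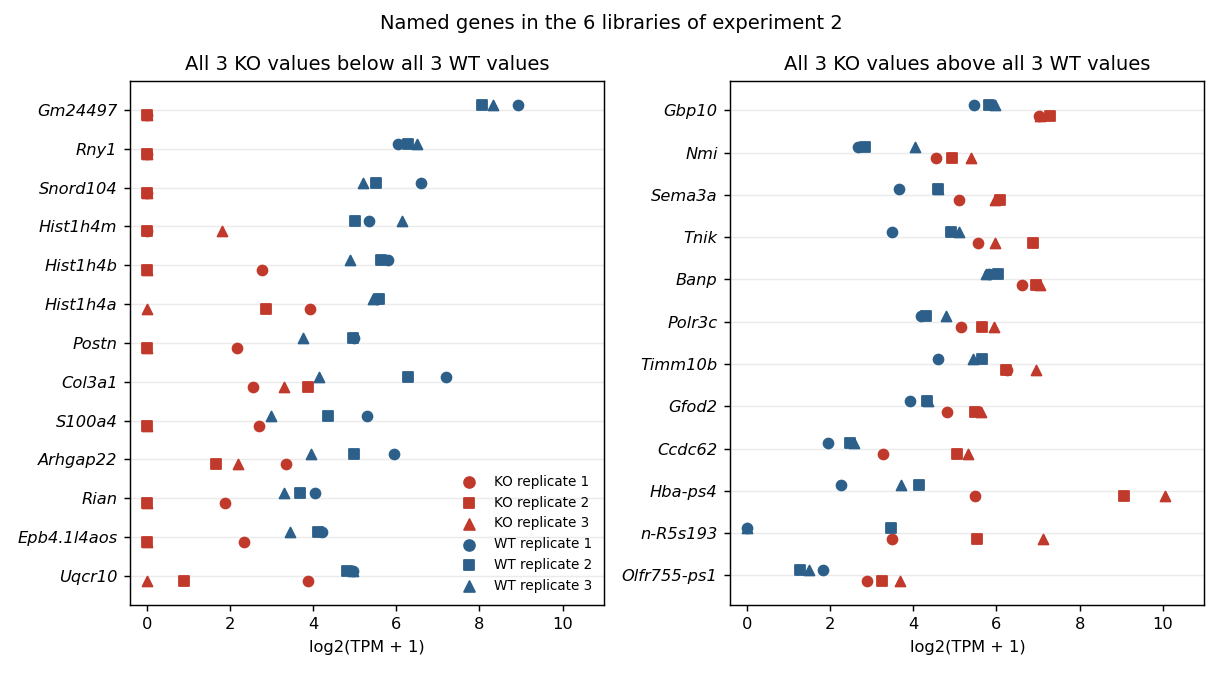
Log2(TPM + 1) (x axis) of the named genes (y axis) in the 6 libraries of experiment 2, KO in red, WT in blue and replicates by symbol, with genes whose KO values lie below WT on the left and above WT on the right. Gm24497, Rny1 and Snord104 are at 0 in the 3 KO libraries, and Gbp10 lies between 128 and 156 TPM in KO and between 42.7 and 60.9 TPM in WT.

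Endothelial programmes close to VEGF signalling showed small differences with overlapping groups. Pan-endothelial genes were higher in 24 of 30 (median 0.13) and tip cell genes in 12 of 17 (median 0.08), and both medians turned negative without WT replicate 1 (-0.30 and -0.46). The VEGF receptor and ligand list was higher in 3 of 10 (median -0.14, but 0.21 without KO replicate 3 and -0.53 without WT replicate 1), and Flt1 was at 1326, 1298 and 697 TPM in KO and 362, 953 and 1183 TPM in WT. Vegfa was at 17.3, 6.01 and 10.9 TPM in KO and 73.3, 36.7 and 10.1 TPM in WT. Its order in WT was that of both the macrophage and the fibroblast markers, and which cells made it was not tested. Notch genes were higher in 9 of 13 tested (median 0.14, and -0.19 without WT replicate 1), with Dll4, the tip cell ligand, at 383, 506 and 312 TPM in KO and 151, 319 and 441 TPM in WT. Venous genes were lower in 10 of 12 (median -0.40, ranging from -0.70 without WT replicate 1 to -0.11 without WT replicate 3). The adhesion molecule E-selectin (Sele), a venous gene, was at 23.3, 24.3 and 28.5 TPM in KO and 31.9, 42.1 and 85.0 TPM in WT.

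Immediate early genes, the transcription factors switched on within minutes of a stimulus, were lower in 21 of 22, with a median difference of -0.34 that became -0.17 without WT replicate 3. Nr4a3 was at 8.89, 5.23 and 16.4 TPM in KO and 21.9, 21.8 and 29.2 TPM in WT (log2 difference -1.29, SE 0.45, limma adjusted p = 0.929). Egr3 was at 19.6, 28.3 and 26.9 TPM in KO and 34.7, 41.4 and 63.2 TPM in WT. Fos, an abundant member, overlapped between groups, at 507, 587 and 607 TPM in KO and 426, 655 and 753 TPM in WT. The difference of the list mean was -0.44 in experiment 2, against 1.05, 0.59 and -0.21 in experiments 1, 3 and 4, so its sign was shared only with experiment 4.

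The KO effect of experiment 2 was set against the mean effect of experiments 1, 3 and 4 in 1 limma fit over all libraries. It was lower for 3 genes (0.0208%) and higher for 0 (0%), with 286 genes at an unadjusted p under 0.05, and the count was 0 without WT replicate 2 or WT replicate 3, 7 without KO replicate 1 and 1 without KO replicate 3. The 3 genes were Snord104 (limma adjusted p = 0.0372), Gm22738, a small nuclear RNA gene (0.0277), and Gm22328, annotated as a microRNA gene (0.0102). Gm22738 stood at 3.91, 10.6 and 7.91 TPM and Gm22328 at 7.20, 38.5 and 44.5 TPM in the WT libraries of experiment 2, and both were listed at 0 in its KO libraries and in all 14 libraries of the other experiments. All 3 genes passed the filter, 1 TPM in 3 of the 6 libraries of experiment 2, only through these WT libraries. For Gm22738 and Gm22328 no other library added spread to the test. Genes present only in other experiments were not tested. For Shb, the histone copies, the sterol genes and the interferon genes named above the difference between experiments had a limma adjusted p of 1.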

How the data were processed

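The authors deposited a table of TPM values for 45706 Ensembl genes with decimal commas, and each library summed to between 999999.2 and 1000000.6. Per the submitters' processing notes the build was GRCm38, and no aligner or counting program is named in the sources used here. Per the labels' protocols, libraries were made from 30 ng of total RNA with a stranded kit and ribosomal RNA depletion, and read in pairs of 150 bases. TPM keeps no depth, so reads behind a value are unknown and no counting interval is given.

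Libraries were matched to samples by column header. The header of KO replicate 3 of experiment 2 stands over 2 columns, and the first was used. The second, whose number of decimals is that of experiment 4, may belong to another sample and entered only alternatives. Gene names in the form of dates (27) were restored from the identifiers. Kept were 14452 genes that reached 1 TPM in 3 or more of the 6 libraries. Their log2(TPM + 1) values went into limma 3.58.1 (R 4.3.3, statmod 1.5.0) with a trended, robust prior. The code was tested on simulated data.

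Named genes were Shb, and per direction 12 genes with non-overlapping groups and a mean log2 of at least 2, called ones first and then by smallest p, without predicted models. Up to 4 members per gene list by smallest p, up to 3 cell type markers by level, and 5 genes per direction for the difference between experiments were added. Gm24497, Gm22738, Gm22328 and other list members given with levels, such as Kdr, Mki67 and Fos, fell outside this rule and were chosen after their values were seen. Coordinates and transcripts came from GENCODE M21 (GRCm38), in which 45143 identifiers were found. Some list members are counted in their lists but not reported here by name. The members and the 54 lists were chosen with earlier results of these data known.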

Additional observations from a re-analysis of the deposited data

Results flagged for a closer look

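The KO effect of experiment 2 differed from the mean effect of the other 3 experiments for 3 genes in limma, all of them short RNAs listed at 0 in the KO libraries of experiment 2. The difference of effects on the log2(TPM + 1) scale was -6.27 for Snord104, -4.62 for Gm22328 and -2.99 for Gm22738. These sizes depend on the pseudocount, because the KO libraries and most other libraries were listed at 0, and each rests on 3 WT libraries.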

How the results depend on the processing

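The count of 3 called genes was 0 when genes under 200 bases were left out, 5 (lower) in a fit over all libraries, 5 (4 lower and 1 higher, Hba-ps4) with the replicate number as a block, 5 without KO replicate 3 and WT replicate 1 together, and 1 to 33 when 1 library was left out. It was 2 or 3 under the other alternatives. Deviations from the group mean were not positively correlated between same-numbered libraries (-0.013, -0.024 and -0.146). With 3 libraries per group this cannot settle whether the samples were paired. The length filter and the fit without both libraries were chosen after seeing the data. The count for the difference between experiments was 1 at a pseudocount of 0.1 TPM, 2 with a common median and 0 to 7 when 1 library was left out. Rny1 and Gm24497 were not called in the fit over all libraries (limma adjusted p = 0.477 and 0.897). Gm24497 was not called with the second column of the same header, which may belong to experiment 4, added (0.858) or swapped in (0.931). Snord104 was not called at a pseudocount of 0.1 TPM (0.0533) or after quantile normalization (0.112). The share of genes higher among those at an unadjusted p under 0.05 was 33.7%, and 49.1% with a common median, 54.1% after quantile normalization, 52.7% at a mean of at least 5 TPM and 19.4% without a filter. The Shb difference ranged from -1.10 to -1.89 when 1 library was left out and was negative in all alternatives run.

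Of 70 genes followed, 60 kept 1 sign in all alternatives, as did 24 of 54 list medians. With libraries left out, singly or KO replicate 3 and WT replicate 1 together, the log2 difference ranged across 0 for Aim2 (-0.70 to 0.06), Shf (-0.16 to 0.56), Mki67 (-0.15 to 0.26), Fos (-0.36 to 0.10), Kdr (-0.52 to 0.33), She (-0.49 to 0.36) and Ptk2 (-0.17 to 0.25). With the column of the same header added or swapped in, Crk was at -0.01 and -0.04 and Hist1h2ab at -0.69 and -1.30. Ptk2 was at -0.12 after quantile normalization, -0.07 with rescaled TPM and -0.05 with that column added. The causes were not tested.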
